A study of Arabidopsis thaliana with 12 samples.

Results

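Cotyledons are the leaf-like first organs of a seedling. Their mesophyll cells no longer divide and are filled with chloroplasts, in which photosystems in the thylakoid membranes capture light and the Calvin cycle fixes carbon. On a medium rich in auxin, cells along the veins of an excised organ re-enter the cell cycle and form callus, a mass of dividing cells that can later give rise to shoots. The data described here follow that change in cotyledons of the Ler (Landsberg erecta) ecotype of Arabidopsis thaliana. They are the 4 arrays titled as cotyledon-derived callus, of 12 in all. On each of them RNA of callus grown for 10 days on callus-inducing medium was hybridised in 1 colour with RNA of untreated cotyledon explants, taken at day 0, in the other. Root and petal explants of the same ecotype went through the same steps, with 4 arrays each, and serve here only for comparison. The labels number the 4 arrays of an organ as biological replicates and give no plant age, and RNA was amplified with a T7 promoter before labelling. The files hold ratios only, so whether either sample expressed the markers of its tissue could not be read from them. Both samples on an array were whole excised organs or whole callus, so in every result below fewer cells of a type and less RNA per cell cannot be told apart.

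Values are log2 ratios of callus over explant, so that 1 stands for 2-fold. The 4 values given for a gene are those of replicates 1 to 4 in that order, and the SD over the arrays follows a fitted ratio. That ratio is the mean of the 4 arrays, or, where 3 measured the gene (n = 3), the midpoint of its means with callus in Cy5 and in Cy3. The direction, callus over explant, is likely and is not stated by the labels: callus is the first channel and day-0 tissue the second. Callus was labelled with Cy5 for replicates 1 and 3, and with Cy3 for the other arrays, replicates 2 and 4. A ratio stops at 100-fold in either direction, and a value at that limit was not taken as a measurement. It was treated as missing, which took 1.99% and 6.20% of the probes on replicates 1 and 3 but 19.3% and 18.4% on replicates 2 and 4, where nearly all of them lay at the lower limit. Of the 13510 genes that could be named, 11106 had at least 3 measured ratios and were tested, and 2404 were not. Of those 2404, 2325 reached the lower limit on replicates 2 and 4 alike, and 7 on all 4 arrays, so most genes left untested had ratios that followed the dye. Of the 2325, 755 stood at the upper limit on replicate 3, so a value at a limit was not read as a bound either. The 4 arrays correlated with each other at 0.78 to 0.93 across the 10424 genes measured on all of them. The difference between replicates 1 and 3 correlated with that between replicates 2 and 4 at 0.38 across genes, against 0.42 in petal and -0.29 in root, which means that replicates 1 and 2 deviated together from replicates 3 and 4. Whether they share material was not tested. The p-values below measure only the spread that remains between these arrays after a term for the dye is fitted. The SD includes the part that follows the dye, so it can far exceed the spread behind a p-value. For the gene BGLU21 the SD was 2.50 and the standard error of the fit 0.27.

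Most measured genes differed between callus and explant. Each gene was tested against a ratio of 0 with limma, with a term for the dye, and counted as higher or lower at a Benjamini-Hochberg adjusted p under 0.05 over the 11106 genes. By that rule 4110 genes were higher in cotyledon callus, 37% of those tested, and 3727 were lower, 33.6%, so 70.6% were called in all. The shares of 37% higher and 33.6% lower are the background for the counts of gene lists below. Of the 7837 called genes 7375 had the same sign on every array that measured them. The sizes were not symmetric. The median called ratio was 1.12 for higher and -1.27 for lower genes, and 156 genes were more than 8-fold higher against 384 more than 8-fold lower. The balance of directions rests on how the authors centred the arrays, for which the sources used here give no method. Centring each array on the median over every probe, limits included, lifts the median of all tested genes to 0.17, and 3896 genes were then higher and 2926 lower. Centring on the tested genes gave 3763 higher and 3966 lower, and keeping ratios at the limit gave 3840 and 4667. The SD between arrays had a median of 0.25 in higher and 0.27 in lower genes, while its 90th percentile was 0.61 in higher and 1.29 in lower genes. Lower genes were therefore less evenly measured, and their median ratio was -1.11 with callus in Cy5 and -1.33 with callus in Cy3.

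Only 1400 of the tested genes carry a name in the RefSeq table, and 12 of these with the highest and 12 with the lowest ratios on 4 arrays are shown by array in the plot of extreme genes. Besides defence, mitosis and wall genes, the upper end held ARL (AT2G44080), whose product resembles the organ-size regulator ARGOS and promotes cell expansion. Its ratio was 3.66, 2.99, 4.59 and 3.40, or 3.66 ± 0.68 (SD, n = 4; limma adjusted p = 0.0009), against 1.26 ± 0.31 in root and 0.74 ± 0.52 in petal. Both differences passed the test (adjusted p = 8e-05 and 5e-05). The receptor-like kinase gene NCRK (AT2G28250) stood at 3.60 ± 0.49. PRA1.B5 (AT5G01640), of a family that acts in vesicle traffic, had 3.77, 4.56, 2.64 and 3.04. GH9B13 (AT4G02290), which encodes an endo-glucanase of family 9 that trims wall glucans, stood at 3.50 ± 1.10, but replicate 1 (5.15) was far above the other arrays (2.92 to 2.98). The same held for sks15 (AT4G37160), related to the multicopper oxidase-like SKU5, with 4.63 in replicate 1 and 3.01 to 3.18 elsewhere. BGLU21 (AT1G66270), a beta-glucosidase gene, followed the dye: 6.36 and 5.05 with callus in Cy5, but 1.75 and 1.22 with callus in Cy3. It has close paralogs, among them BGLU22 (AT1G66280) at 3.21 ± 0.86, and the signal of a probe may include both genes. Of the 12 highest genes BGLU21 was the least evenly measured.

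**Figure D1:**
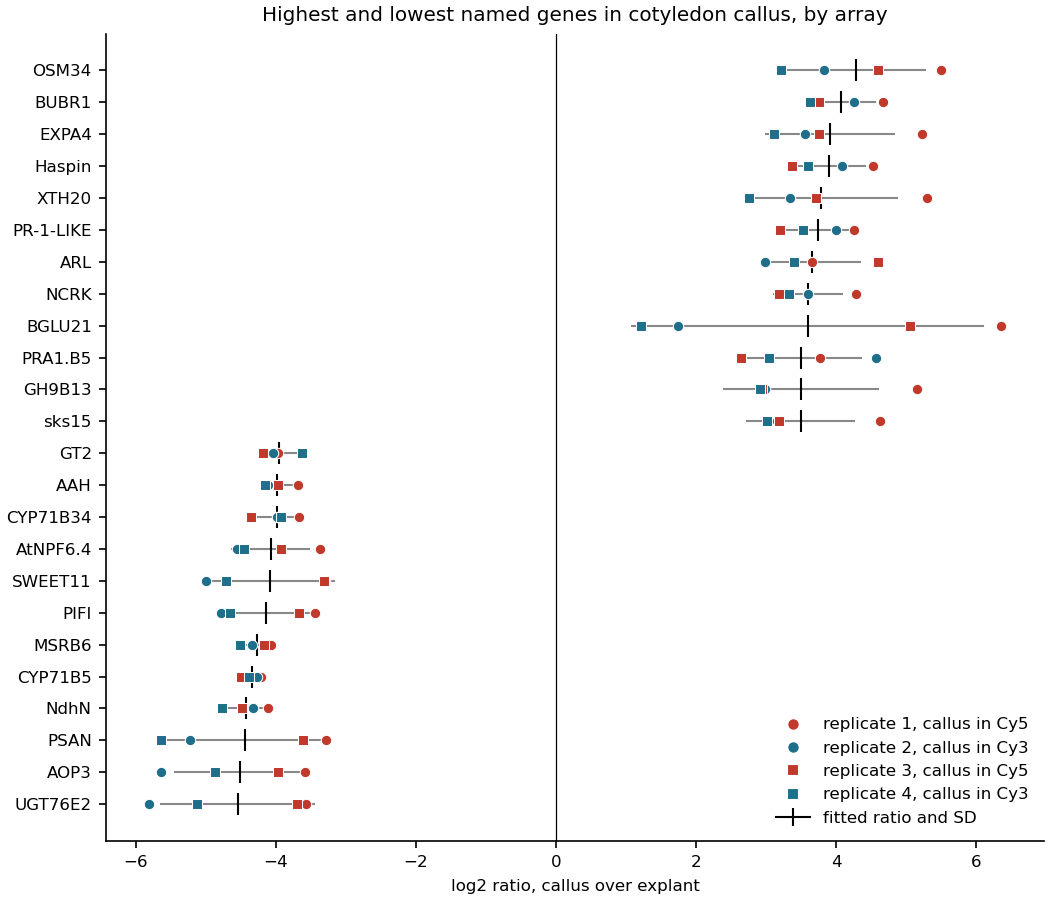
Log2 ratio of callus over explant (x axis) on each of the 4 cotyledon arrays for the 12 highest and 12 lowest named genes; circles and squares are arrays, red with callus in Cy5 and blue with callus in Cy3, and the black tick and grey bar give the fitted ratio and the SD. Replicate 1 of GH9B13 (5.15) stands apart from its other arrays, and the 2 colours separate for BGLU21, PSAN, AOP3 and UGT76E2, whereas the arrays of CYP71B5 lie between -4.49 and -4.21.

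The lower end was led by UGT76E2 (AT5G59590), which encodes a UDP-glycosyltransferase that adds sugar to small molecules, at -4.55 ± 1.10, or 23.3-fold lower. Its arrays read -3.56, -5.81, -3.69 and -5.12, lower with callus in Cy3. More even were NdhN (AT5G58260), a subunit of the chloroplast NADH dehydrogenase-like complex, at -4.11, -4.33, -4.48 and -4.77, and the methionine sulphoxide reductase gene MSRB6 (AT4G04840) at -4.27 ± 0.20. AtNPF6.4 (AT3G21670), of the nitrate and peptide transporter family, was at -4.07 ± 0.54. AAH (AT4G20070), the allantoate amidohydrolase that releases nitrogen from purine breakdown, read -3.69, -4.10, -3.97 and -4.16, and the trihelix transcription factor gene GT2 (AT1G76890) -3.97, -4.03, -4.18 and -3.63. All 4 arrays of each of these 24 genes had the same sign, as the rule that named them requires, and no limma adjusted p among them exceeded 0.00406.

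Genes of the photosynthetic machinery fell. Of 9 tested genes of the photosystems, antenna and associated chloroplast proteins, 8 were lower and the median ratio was -3.23, against a median of -0.0013 for all tested genes and 33.6% of them lower. The list fell in the other organs too, with a median of -1.65 in root and -3.22 in petal. PSAN (AT5G64040), a subunit of photosystem I, read -3.28, -5.23, -3.61 and -5.64, and PSBY (AT1G67740), of photosystem II, -0.90, -3.45, 0.14 and -3.26. PSBY lost its call with no dye term in the fit (-1.87, adjusted p = 0.0775). The antenna gene LHCB4.3, named after its value was seen, was the member that did not pass (0.25 ± 0.67). All 4 tested enzymes of the Calvin cycle and photorespiration were lower (median -3.34, against -1.99 in root and -3.42 in petal). They were phosphoribulokinase (PRK, AT1G32060) at -3.71 ± 1.12, sedoheptulose bisphosphatase (SBPASE, AT3G55800) at -3.44 ± 0.67, the peroxisomal hydroxypyruvate reductase HPR (AT1G68010) at -3.24 ± 1.07 and RCA (AT2G39730), which activates Rubisco, at -2.87 ± 1.92. The size of the fall followed the dye in these lists. In all 8 lower photosystem genes and all 4 Calvin cycle genes both arrays with callus in Cy3 lay below both arrays with callus in Cy5, an order found in 24.0% of all lower genes measured on 4 arrays. The photosystem median was -1.66 with callus in Cy5 and -4.53 with callus in Cy3. For RCA the pairs were -1.29 and -1.12 against -4.68 and -4.38. The mean ratio was below 0 in both orientations for all 12 genes, while its size differed between the orientations.

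Genes for proteins that build and regulate the thylakoid fell as well. Of 14 tested genes for thylakoid assembly, the NADH dehydrogenase-like complex and light-harvesting-like proteins (17 on the array), 12 were lower and 2 higher, with a median of -2.46 with callus in Cy5 and -2.38 with callus in Cy3. Of the 12 lower genes 3 had both Cy3 arrays below both Cy5 arrays. In 6 of the 12 replicates 1 and 2 both lay above replicates 3 and 4, an order seen in 18.2% of all lower genes measured on 4 arrays. NdhN was the lowest. PSB27 (AT1G03600), a photosystem II assembly protein of the thylakoid lumen, went against the list, at 0.53, 0.87, 0.29 and 0.61, and it was above root (-0.16 ± 0.12) and petal (-0.31 ± 0.27) with adjusted p = 0.00521 and 0.00242. CURT1D (0.51 ± 0.28), which helps to bend thylakoid membranes, was also higher, but lost its call without replicate 1 (adjusted p = 0.0922), 3 (0.123) or 4 (0.0726) and with limited ratios kept (0.0597). The median of this list was -0.06 in root and -1.60 in petal, a difference not tested for the list.

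**Figure D2:**
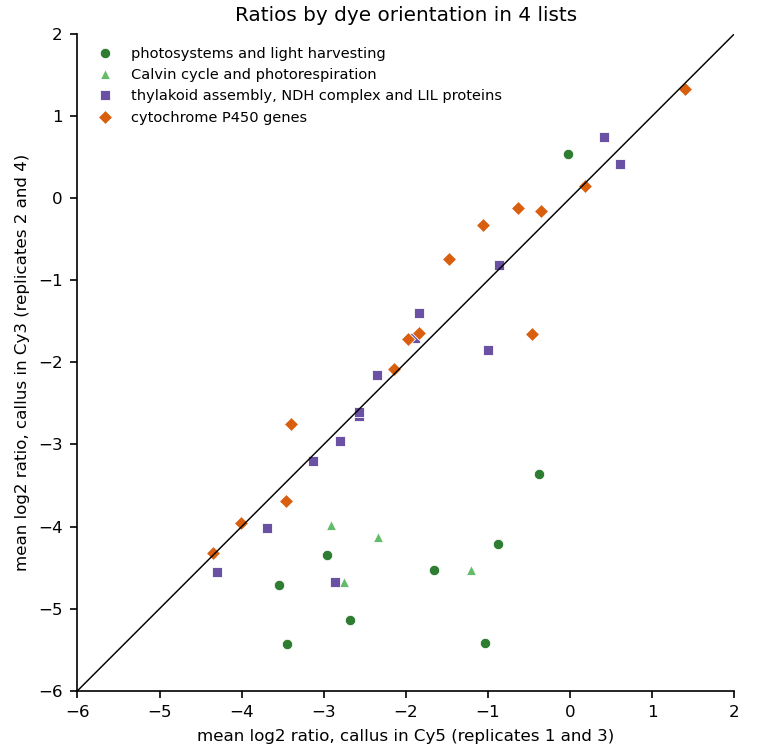
Mean log2 ratio of callus over explant with callus in Cy5 (x axis) and in Cy3 (y axis) for the tested members of 4 lists; each point is a gene measured on at least 3 arrays and the line marks equal values. The 8 lower photosystem genes and the 4 Calvin cycle genes lie below the line, and most thylakoid assembly and P450 genes lie close to it.

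Genes of pigment synthesis and of the plastid's own upkeep also fell. In tetrapyrrole and carotenoid synthesis 7 of 10 tested genes fell and none rose, from the protochlorophyllide reductase PORB (AT4G27440) at -2.75 ± 0.59 to the uroporphyrinogen decarboxylase gene HEME1 (AT3G14930) at -1.45 ± 0.30. Of 20 tested genes for plastid protein import, division, chaperonins and RNA editing, 12 fell and 3 rose, with a median of -1.16, against 0.57 in root and -0.13 in petal. The lowest was NdhS (AT4G23890), a further subunit of the NADH dehydrogenase-like complex, at -3.51, -3.89, -3.87 and -4.15. The chaperonin genes split. Cpn60beta4 (AT1G26230), whose product folds a subunit of that same complex, fell to -2.65 ± 0.18, whereas Cpn60beta2 (AT3G13470) at 1.63 ± 0.44 and Cpn60beta3 (AT5G56500) at 2.18 ± 0.14 rose. NCLPP7 (AT5G23140), which despite its place in the list is known as the ClpP subunit of mitochondria, rose to 0.78 ± 0.26. OTP43 (-0.04 ± 0.35) and OTP87 (-0.08 ± 0.14), named after their values were seen and also known from mitochondria, did not pass. Of the 19 genes of this list measured in all organs 6 were lower in cotyledon alone, against 4.48% of all genes compared, and these are taken up again below.

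Genes for defence metabolites and for modifying small molecules fell more often than they rose. Of 7 tested glucosinolate genes (8 on the array) 5 fell, with a median of -2.05. The lowest was the side-chain gene AOP3 (AT4G03050), at -3.58, -5.63, -3.97 and -4.87, and the highest of the 5 was the glycosyltransferase gene UGT74B1 (AT1G24100), which makes the desulphoglucosinolate core, at -1.34, -1.34, -0.94 and -0.86. Cytochrome P450 genes, mostly of the CYP71B subfamily, were lower in 9 of 14 tested. CYP71B5 (AT3G53280) was the most evenly measured of the extreme genes, at -4.21, -4.27, -4.49 and -4.38, and CYP71B34 (AT3G26300) read -3.66, -3.99, -4.36 and -3.93. CYP71B35 (AT3G26310) alone was higher, at 1.36 ± 0.32, against -0.52 ± 0.48 in root and -0.84 ± 1.26 in petal. Close paralogs in this subfamily may share signal. Of 45 tested UDP-glycosyltransferase genes (55 on the array) 24 fell, 7 rose and 14 did not pass, a larger share of lower genes (53.3%) than the 33.6% over all genes. UGT72E2 (AT5G66690), which glucosylates monolignols, was the highest, at 3.29, 2.81, 2.27 and 2.37. UGT85A2 (AT1G22360) read 0.89, 1.05, 1.03 and 1.12, UGT71C2 (AT2G29740) 1.20, 1.00, 1.43 and 1.13 and UGT71C3 (AT1G07260) 2.25, 1.47, 1.49 and 1.58. Of 14 glutathione transferases 7 were lower (50%, against 33.6% of all genes) and 4 higher (28.6%, against 37%). They ran from GSTU20 (AT1G78370) at -3.45 ± 0.30 to GSTU25 (AT1G17180) at 2.93 ± 0.49.

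Genes of transport, stress and turnover moved in both directions. Of 20 tested genes of sugar transport and starch (24 on the array) 10 fell (50%, against 33.6% of all tested genes) and 5 rose (25%, against 37%). The sugar exporters SWEET4 (AT3G28007) at -4.29 ± 0.41 (n = 3) and SWEET11 (AT3G48740), which loads sucrose into the phloem, at -3.29, -5.00, -3.30 and -4.71, were lowest. SAG29 (AT5G13170), a member of the same SWEET family first known from senescing leaves, rose instead, at 2.90, 2.44, 1.95 and 2.06, and SWEET1 (AT1G21460) rose to 1.14 ± 0.18. Starch genes that rose were APL3 (AT4G39210) and APL4 (AT2G21590), large subunits of ADP-glucose pyrophosphorylase, at 1.51 ± 0.44 and 0.92 ± 0.20, and the alpha-amylase gene AMY1 (AT4G25000) at 1.48 ± 0.19. In the list of nitrogen, phosphate, sulphate and metal transport 8 of 20 tested genes fell (40%, against 33.6% of all tested genes) and 3 rose (15%, against 37%), from AtNPF6.4 to AtNPF4.3 (AT1G59740) at 3.09 ± 0.60. Of 14 tested genes of abscisic acid and drought response 9 fell (64.3%, against 33.6%) and 5 rose (35.7%, against 37%). The lowest was LEA4-5 (AT5G06760), a late embryogenesis abundant protein, at -3.34 ± 1.62 (n = 3). The falling side also included the cold-regulated genes KIN1 (AT5G15960) at -2.75 ± 0.35, KIN2 (AT5G15970) at -2.93 ± 0.65 and COR15B (AT2G42530) at -1.88 ± 0.39, 3 examples chosen after their values were seen, of which KIN1 and KIN2 are near-identical neighbours. The rising side was LEA27 (AT2G46140) at 3.79, 2.76, 2.47 and 2.51, HVA22C (AT1G69700) at 2.57 ± 0.26, the bZIP factor EEL (AT2G41070) at 2.55 ± 0.62, DREB2C (AT2G40340) at 1.60 ± 0.65 and LEA26 (AT2G44060) at 1.19 ± 0.43. Of 12 autophagy and senescence genes 10 fell (83.3%, against 33.6%), led by ATG8E (AT2G45170), a ubiquitin-like protein of autophagosome membranes, at -2.36, -3.72, -2.14 and -3.45. Without replicate 1 this count of 10 was 6. Among vacuolar genes 6 of 9 fell (66.7%, against 33.6%), and 5 of these 6 had both Cy3 arrays below both Cy5 arrays. VHA-A3 (AT4G39080), a membrane subunit of the vacuolar proton pump, was lowest at -1.57 ± 0.22.

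**Figure D3:**
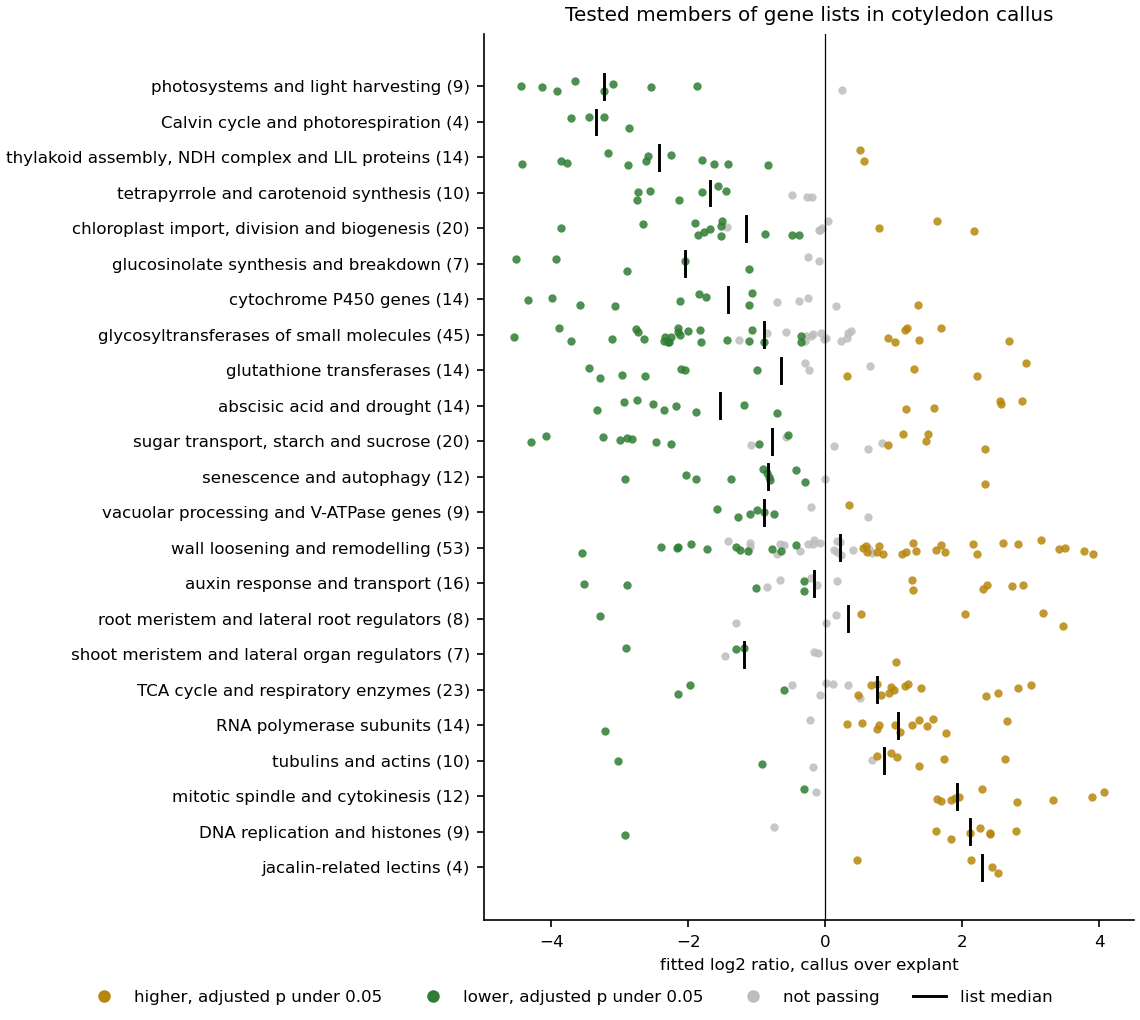
Fitted log2 ratio of callus over explant (x axis) of every tested member of 23 gene lists, with the number tested in brackets; points are genes, gold if higher, green if lower and grey if not passing, and black bars are list medians. The photosystem, Calvin cycle and thylakoid lists lie almost wholly below 0, and the mitotic, replication and RNA polymerase lists mostly above 0.

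Genes of cell division rose. Of 12 tested genes of the mitotic spindle and cytokinesis 10 were higher, with a median of 1.92, against 37% of all tested genes higher. The list median was 1.10 in root and 2.09 in petal. BUBR1 (AT2G33560), which encodes a spindle checkpoint protein, read 4.67, 4.25, 3.76 and 3.62, and Haspin (AT1G09450), the kinase that marks histone H3 at mitotic centromeres, 4.53, 4.08, 3.37 and 3.61. In 7 of the 10 replicates 1 and 2 both lay above replicates 3 and 4, an order seen in 25.8% of all higher genes. The cytokinesis gene KEU (AT1G12360) was the member called lower (-0.31 ± 0.27), a call that was lost without any 1 of the 4 arrays (adjusted p from 0.059 to 0.139). Of 9 tested genes of DNA replication and histones 7 rose, with a median of 2.12, against 0.93 in root and 2.12 in petal. POLA3 (AT5G41880), of the polymerase alpha and primase complex, was the highest at 3.04, 2.60, 2.81 and 2.67. The member that fell was HIS1-3 (AT2G18050), a linker histone variant known to be induced by drought, with -2.93 ± 0.27. The bulk histone genes have near-identical paralogs, and their signals may be shared.

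Genes for transcription and respiration rose too. Of 14 tested subunits of the nuclear RNA polymerases 12 rose, against 37% of all tested genes. Their median was 1.06, against 0.85 in root and 1.56 in petal. NRPE3B (AT2G15400) was highest at 2.79, 2.53, 2.64 and 2.67. NRPE7 (AT4G14660) was lowest at -3.22 ± 3.28 (n = 3), from -0.51 and -0.25 in replicates 1 and 3 and -6.05 in replicate 4, and its call was lost with no dye term (-2.27, adjusted p = 0.238). Enzymes of the tricarboxylic acid cycle, respiration and linked carbon metabolism rose in 14 of 23 tested genes (60.9%, 29 on the array), with a median of 0.75 against 0.01 in root and 0.66 in petal. PDC3 (AT5G01330), a pyruvate decarboxylase, led at 3.00 ± 0.49. PPDK (AT4G15530), pyruvate phosphate dikinase, went the other way at -2.15 ± 0.21, as did the citrate lyase subunit gene ACLA-3 (AT1G09430) at -1.98 ± 0.32. Tubulin and actin genes rose in 6 of 10, from TUB7 (AT2G29550) at 2.65, 2.65, 2.71 and 2.47, and fell for TUB5 (AT1G20010) at -3.02 ± 0.43 and TUA1 (AT1G64740) at -0.92 ± 0.35. All 4 tested jacalin-related lectins were higher, JAL22 (AT2G39310) at 2.44 ± 0.82, JAL31 (AT3G16430) at 2.52 ± 0.67, JAL34 (AT3G16460) at 2.13 ± 0.53 and JAL23 (AT2G39330) at 0.47 ± 0.23. JAL23 lost its call without replicate 3 (0.41, adjusted p = 0.0554) or 4 (0.44, 0.055). In root callus the mean of all 4 lay below 0, with a list median of -1.35, and in petal callus above 0, with a list median of 3.77.

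Cell wall genes moved in both directions, also within families. Of 53 tested genes of wall loosening and remodelling (61 on the array) 22 were higher, 12 lower and 19 did not pass, with a median of 0.21. These 41.5% higher and 22.6% lower genes stand beside 37% and 33.6% over all genes. The expansins, which loosen walls during growth, ran from EXPA4 (AT2G39700) at 5.23, 3.56, 3.76 and 3.11 to EXPA16 (AT3G55500) at -2.39 ± 0.61. Family 9 endo-glucanases ran from GH9B13 to GH9B18 (AT4G39010) at -2.04, -1.67, -2.42 and -2.50. XTH20 (AT5G48070), a xyloglucan endotransglucosylase that cuts and rejoins wall glucans, was at 5.30, 3.34, 3.72 and 2.76, while its relative EXGT-A3 (AT2G01850) fell to -1.95 ± 0.27. The lowest member was the cellulose synthase-like gene CSLB03 (AT2G32530), at -3.37, -3.74, -3.46 and -3.61. Genes of the TBL family, several of which acetylate wall polysaccharides, were 5 higher (33.3%) and 8 lower (53.3%) of 15 tested (23 on the array). TBL39 (AT2G42570) at 3.49 ± 0.73 and TBL25 (AT1G01430) at -3.57 ± 0.26 marked the ends.

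Genes of hormone response and organ identity were few on this array by name, and moved in both directions. Of 16 tested auxin genes 6 rose (37.5%, against 37% of all tested genes) and 5 fell (31.2%, against 33.6%), from the auxin-induced repressor IAA30 (AT3G62100) at 3.76, 2.67, 2.68 and 2.44 to the auxin synthesis gene YUC2 (AT4G13260) at -3.53 ± 0.55 (n = 3). Also higher were GH3.1 (AT2G14960), GH3.3 (AT2G23170) and GH3.17 (AT1G28130), of a family that joins auxin to amino acids, at 2.30 ± 0.52, 2.73 ± 1.88 and 2.37 ± 0.61, named after their values were seen. GH3.9 (AT2G47750) of the same family was called lower, at 0.53, -2.32, 0.55 and -2.82, above 0 with callus in Cy5 and below 0 with callus in Cy3. Its call was lost with no dye term (adjusted p = 0.279), with 1 dye term for all organs (0.139) and with the replicate block (0.202). The number of lower auxin genes was 1, GH3.9, without replicate 1, 3 or 4. There YUC11 and IAA18 lost their calls, while YUC2 and IAA34, which lack replicate 2, were not tested. YUC2 kept its call in all alternatives that tested it. In the cytokinin list the type-A response regulator ARR15 (AT1G74890), a cytokinin-induced brake on cytokinin signalling, rose to 2.22, 2.11, 1.56 and 1.87. RR19, RR16 and RR22 were lower (-1.81 ± 1.59, -0.77 ± 0.62 and -0.39 ± 0.16) and RR21 (0.75 ± 1.45) did not pass. None of these 3 lower calls held in all alternatives, with RR19 lost without replicate 1 (-1.46, adjusted p = 0.058), RR22 without replicate 1, 2 or 4 (0.0803 to 0.102) and RR16 with no dye term (0.055). Of the ethylene genes RTE1 (AT2G26070) rose to 1.63 ± 0.11 and the transcription factor EIN3 (AT3G20770), which drives the ethylene response, fell to -1.16 ± 0.29. SLY2 (AT5G48170), an F-box protein of gibberellin response, rose to 1.52 ± 0.26.

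Of 4 tested genes of stomata and trichomes, cell types of the leaf surface, 3 fell (75%, against 33.6% of all tested genes). FMA (AT3G24140), the FAMA gene that completes guard cell formation, read -2.99, -3.12, -2.26 and -3.17. The trichome regulators TRY (AT5G53200) and GIS (AT3G58070) fell to -1.22 ± 0.41 and -1.15 ± 0.44, while the stomatal density peptide STOMAGEN did not pass, with 0.27, 1.23 and -1.86 in replicates 1, 2 and 3. Of 7 tested regulators of the shoot meristem and lateral organs 3 fell (42.9%, against 33.6% of all genes) and 1 rose (14.3%, against 37%). YAB3 (AT4G00180), which specifies the lower side of leaves, was the lowest at -2.93, -2.82, -2.95 and -2.95, and PHV (AT1G30490), which specifies the upper side, rose to 1.35, 1.18, 0.85 and 0.79. Of 8 tested regulators of root meristem and lateral roots 4 rose (50%, against 37% of all genes) and 1 fell (12.5%, against 33.6%). LBD16 (AT2G42430), a factor of lateral root initiation, was highest at 4.85, 3.02, 3.27 and 2.74, and the signalling peptide gene CLE21 lowest at -3.29 ± 0.08 (n = 3). Root hair genes were represented by the expansin EXPA7 (AT1G12560) at 2.21, 1.68, 1.85 and 1.27 and the root hair regulator SCN1 (AT3G07880) at 0.95 ± 0.27, both higher, while the expansin EXPA18 (AT1G62980) did not pass, with -0.48, 1.23 and -2.56 in replicates 1, 3 and 4. Both tested genes of the seed and embryo list rose: isocitrate lyase (ICL, AT3G21720), of the glyoxylate cycle, to 2.77 ± 0.44 and the embryo regulator BBM (AT5G17430) to 3.18 ± 0.92.

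Defence, redox and signalling genes moved in both directions. Of 10 tested pathogenesis-related and salicylate genes 5 rose (50%, against 37% of all tested genes), 1 fell (10%, against 33.6%) and 4 did not pass. The osmotin gene OSM34 (AT4G11650) was the highest of all named genes, at 4.28 ± 0.99, and WRKY29 (AT4G23550), a transcription factor of innate immunity, was the member that fell, at -2.19, -2.55, -1.62 and -1.02. Among 6 tested jasmonate genes the thionin THI2.1 (AT1G72260) was called lower at -2.11 ± 1.07 (n = 3), a call lost with the replicate block (-1.68, adjusted p = 0.0534). The jasmonate methyltransferase gene JMT (AT1G19640) was also called lower, but read -0.11, -2.85, 0.80 and -5.57, with both Cy3 arrays below both Cy5 arrays. Its call was lost without replicate 1 (adjusted p = 0.132) or 3 (0.0851), with no dye term (0.208), with 1 dye term for all organs (0.0781), with limited ratios kept (0.0712) and with the replicate block (0.155). The defensin PDF1.3 (AT2G26010) rose to 1.61 ± 0.76, a call lost without replicate 2 (adjusted p = 0.0746) or 4 (0.0614). In the redox list 7 of 16 genes rose (43.8%) and 6 fell (37.5%), shares near the 37% and 33.6% over all tested genes. The list ran from the peroxidase Prx37 (AT4G08770) at 4.55, 2.40, 3.30 and 2.29 to TAPX (AT1G77490), the ascorbate peroxidase of the thylakoid, at -2.69, -2.45, -2.97 and -2.92. Of the 15 redox genes measured in all organs 4 were higher in cotyledon alone, against 3.63% of all genes compared, and 1, the glutathione reductase gene GR (AT3G54660) (-1.09 ± 0.12, against 0.30 ± 0.20 in root), was lower alone, against 4.48%.

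Of 33 tested genes of kinase cascades and calcium signalling 12 rose (36.4%, against 37% of all tested genes) and 13 fell (39.4%, against 33.6%). The calmodulin-like genes alone spanned CML43 (AT5G44460) at 3.28, 3.37, 2.82 and 3.06 and CML41, which is described with the genes lower in cotyledon alone. The IQD genes, whose products bind calmodulin, spanned iqd15 (AT3G49380) at 2.45 ± 0.44 and iqd21 (AT3G49260) at -3.29, -3.76, -3.29 and -3.22. ATMPK13 (AT1G07880), a mitogen-activated protein kinase, rose to 2.85 ± 0.31. None of the 7 tested glutamate receptor-like channel genes rose and 6 fell, with a median of -0.88, against 0.54 in root and -0.18 in petal. That count of 6 was 3 without replicate 1 or without replicate 3. GLR2.8, 1 of the 6, was measured on 3 arrays and was not tested in those settings.

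Transcription factor families held genes of both directions, as the tested genes did as a whole. Of 16 tested bHLH genes 4 rose (25%, against 37% of all tested genes) and 7 fell (43.8%, against 33.6%). The 7 became 2 to 4 with arrays centred on all values, with limited ratios kept or without any 1 replicate. SPT (AT4G36930), the SPATULA gene that limits cotyledon and leaf growth, rose to 2.71, 2.24, 2.55 and 2.40, while PIF7 (AT5G61270), a phytochrome-interacting factor of shade responses, fell to -3.41, -4.72, -3.15 and -4.02. Among 16 tested bZIP genes bZIP70 (AT5G60830) at 3.43 ± 0.54 and BZIP34 (AT2G42380) at -3.24 ± 0.48 were the ends of the list. Of these 16 genes 6 were higher (37.5%, against 37%) and 3 lower (18.8%, against 33.6%). Of 29 tested MADS-box genes (58 on the array) 7 rose (24.1%, against 37%) and 8 fell (27.6%, against 33.6%). The 7 became 4 in fits of all 12 arrays. The 8 include AGL79, whose place in the family is not settled here, since RefSeq gives that name to another locus as well. AGL19 (AT4G22950), which promotes flowering after long cold, was at 2.27, 2.08, 1.93 and 1.98, and AGL24 (AT4G24540), a further promoter of flowering, at 1.06 ± 0.30 (n = 3). AGL24 lost its call in a fit of all 12 arrays (0.34) and changed sign with limited ratios kept (-0.81, adjusted p = 0.666).

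The comparison with root and petal asked which changes were found in cotyledon and not in the other organs. A gene was counted as changed in cotyledon alone where it was called in cotyledon, differed in the same direction from both root and petal (limma contrasts in a fit of all 12 arrays, adjusted p under 0.05 over the 9695 genes measured on at least 3 arrays of each organ), and was not called in that direction in either. By this rule 352 genes were higher in cotyledon alone, 3.63% of those tested, and 434 were lower, 4.48%. Their median ratios were 1.16 in cotyledon, -0.53 in root and -0.62 in petal for the higher set, and -0.84, 0.48 and 0.28 for the lower set, which describes what the rule selected. Many were called in the opposite direction elsewhere: 122 of the 352 were lower in both other organs and 155 of the 434 were higher in both, whereas 86 and 108 were called in neither. The contrasts themselves were uneven. Cotyledon lay above petal in 18.5% of genes and below it in 30.1%, and above and below root in 26.7% each.

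**Figure D4:**
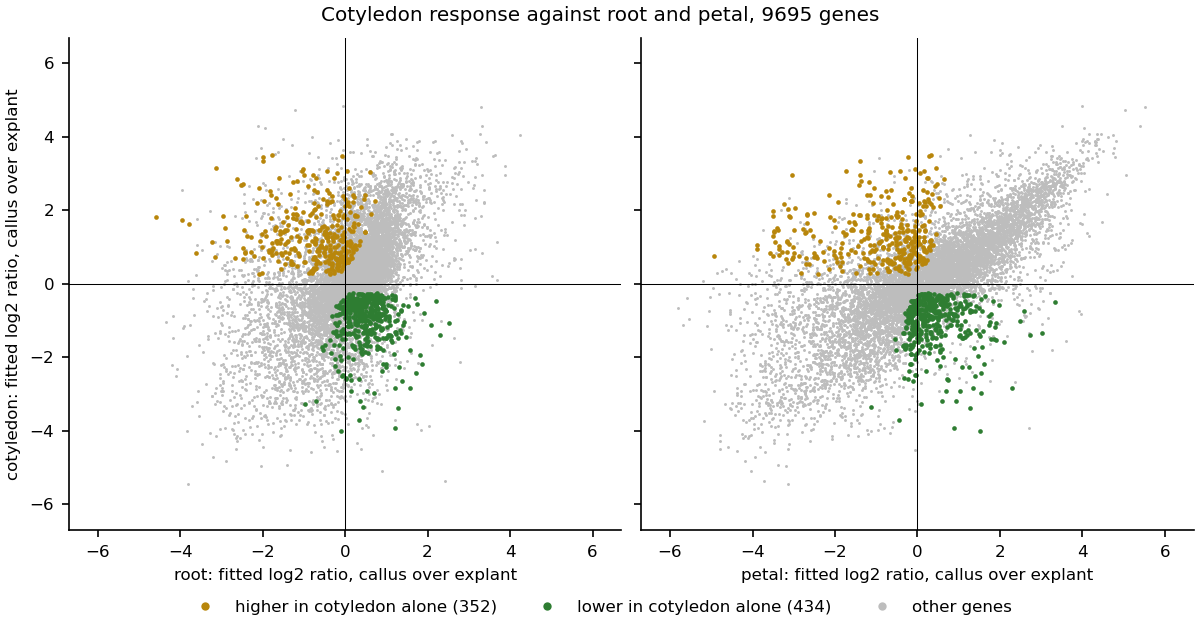
Fitted log2 ratio of callus over explant in cotyledon (y axis) against root (left) and petal (right) for 9695 genes; gold points are the 352 genes higher and green points the 434 genes lower in cotyledon alone, and grey points all others. The selected genes fill the quadrants of opposite sign, with medians of -0.53 in root and -0.62 in petal for the higher set.

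Of the genes higher in cotyledon alone 53 had a name, and the 10 whose smaller difference from the other organs was largest are described here, wall genes first. GH9C2 (AT1G64390), a family 9 endo-glucanase, read 3.96, 2.56, 2.47 and 2.27, against -1.17 ± 0.20 in root and -1.37 ± 0.83 in petal (SD, n = 4 each). Every cotyledon array lay above every root and petal array, which the choice by difference favours, although replicate 1 stood apart. GH9B8 (AT2G32990), of the same family, was at 2.60 ± 0.77 in cotyledon, -2.10 ± 0.22 in root and -0.15 ± 0.58 in petal. The xylanase gene ATXYN3 (AT4G08160) was at 2.41 ± 0.53, -1.81 ± 0.53 and -1.16 ± 0.41 in the same order. EXPB3 (AT4G28250), a beta-expansin, moved most against root, at 3.15 ± 0.70 in cotyledon and -3.14 ± 0.36 in root, with 0.45 ± 1.27 in petal. TBL39 was at -0.08 ± 0.30 in root and 0.29 ± 0.33 in petal, where it did not pass the test, against 3.49 ± 0.73 in cotyledon.

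The other 5 of these 10 genes had other functions. UPB1 (AT2G47270), a bHLH factor that in roots sets where cells stop dividing by repressing peroxidase genes, rose to 2.50, 1.60, 1.96 and 2.10 in cotyledon and was at -0.73 ± 0.43 in root and -3.14 ± 1.07 in petal. PRA1.B5 was at -1.76 ± 0.46 in root and 0.33 ± 0.38 in petal. The glutathione transferase gene GSTU26 (AT1G17190) was at 2.21 ± 0.79 in cotyledon, -0.75 ± 0.50 in root and -1.07 ± 0.23 in petal, and the glycosyltransferase gene UGT71D1 (AT2G29730) at 1.16 ± 0.48, -1.68 ± 0.21 and -2.35 ± 0.18. ARPN (AT2G02850), which encodes the copper protein plantacyanin, had high values in replicates 1 and 2 and lower ones in 3 and 4, at 4.96, 4.39, 1.32 and 1.88. Its call rested on single arrays: without replicate 1 it was 2.23 (adjusted p = 0.0683) and without replicate 2 it was 2.51 (0.108). It was also lost with limited ratios kept (0.0633) and with replicates averaged in pairs (0.0545), at an unchanged ratio. For the 10 genes the larger of the adjusted p-values of the 2 differences was 0.0167 for ARPN and 0.00407 or less for the others.

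**Figure D5:**
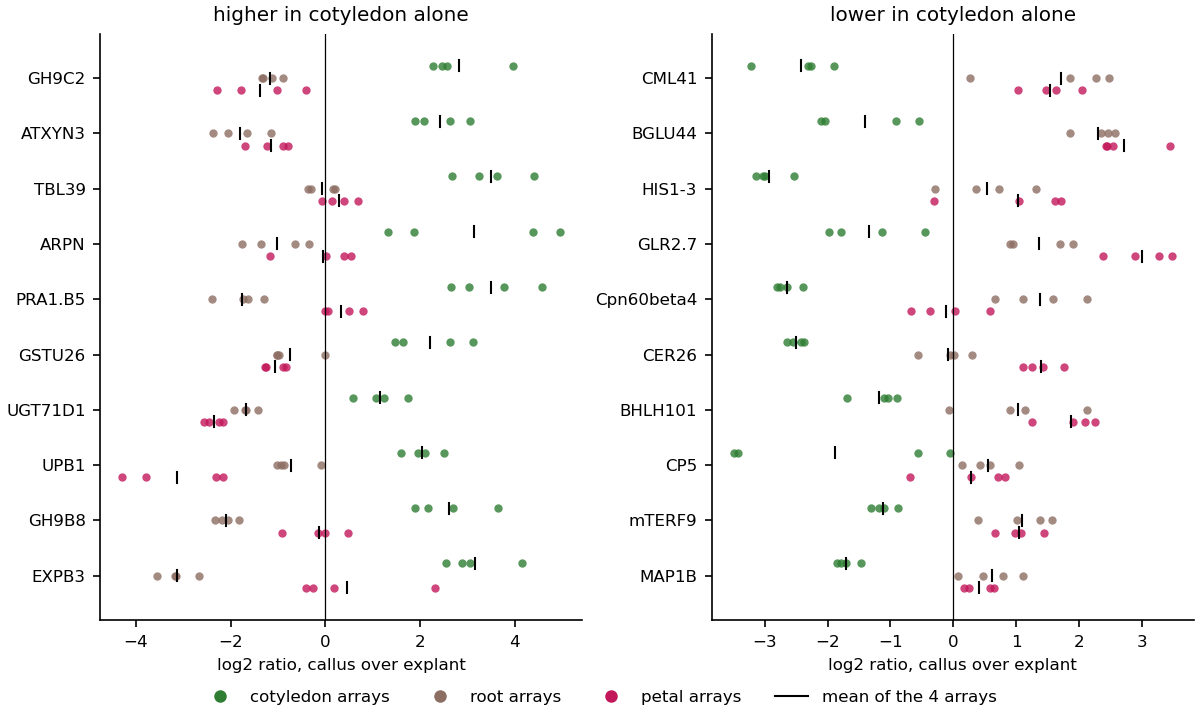
Log2 ratio of callus over explant (x axis) on every array of cotyledon (green), root (brown) and petal (pink) for the 10 named genes with the largest smaller difference that were higher (left) or lower (right) in cotyledon alone; black ticks are means of 4 arrays. Cotyledon replicate 1 of GH9C2 (3.96) lies apart, and the arrays of ARPN, BGLU44 and CP5 fall into pairs.

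Of the genes lower in cotyledon alone 56 had a name, and the 10 with the largest smaller difference had varied functions. CML41 (AT3G50770), a calmodulin-like calcium sensor, fell to -2.26, -3.22, -2.31 and -1.90, while it was at 1.72 ± 1.01 in root and 1.55 ± 0.42 in petal. HIS1-3 read -2.53, -3.04, -3.14 and -2.99 in cotyledon, with 0.54 ± 0.68 in root and 1.03 ± 0.93 in petal. CER26 (AT4G13840), which acts in the elongation of very long chain fatty acids for leaf wax, was at -2.50 ± 0.13 in cotyledon, -0.07 ± 0.36 in root and 1.39 ± 0.28 in petal. BHLH101 (AT5G04150), a factor of the iron deficiency response, was at -1.18 ± 0.35, 1.03 ± 0.90 and 1.88 ± 0.44. The cotyledon arrays of these 4 genes lay below every root and petal array, which the choice by difference favours.

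Several of the set encode plastid proteins. Cpn60beta4 was at 1.37 ± 0.63 in root and -0.11 ± 0.54 in petal, against -2.65 in cotyledon. mTERF9 (AT5G55580), a chloroplast protein that acts in plastid ribosome assembly, read -1.31, -1.10, -1.18 and -0.87 in cotyledon, 1.10 ± 0.52 in root and 1.05 ± 0.32 in petal. The methionine aminopeptidase gene MAP1B (AT3G25740) was at -1.70 ± 0.17, 0.61 ± 0.44 and 0.42 ± 0.23. Further plastid genes of the set, named after their values were seen, were the RNA editing factors OTP84 (AT3G57430) and OTP85 (AT2G02980) at -1.69 ± 0.28 and -1.90 ± 0.38, the iron-sulphur protein HCF101 (AT3G24430), needed for photosystem I, at -1.77 ± 0.40, and the division gene FTSZ2-1 (AT2G36250) at -0.48 ± 0.05. The starch enzymes SBE2.2 (AT5G03650) and PWD (AT5G26570) belonged to it as well, at -0.97 and -0.55 in cotyledon and at 1.27 and 1.76 in root. The root mean of these 6 genes was above 0, where the list of plastid biogenesis as a whole had a median of 0.57.

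The remaining 3 of the 10 rested on single settings or arrays. BGLU44 (AT3G18080), a beta-glucosidase gene, was at -0.54, -0.91, -2.10 and -2.04, and lost its call without replicate 3 (-1.01, adjusted p = 0.0747) or 4 (-1.12, 0.101), with limited ratios kept (0.062) and with replicates averaged in pairs (0.0563). The glutamate receptor-like channel gene GLR2.7 (AT2G29120) was at -1.79, -1.97, -1.14 and -0.45 and lost it without replicate 1 (-1.17, 0.0935) or 3 (-1.50, 0.0578). CP5 (AT1G64720) followed the dye, at -0.56, -3.50, -0.05 and -3.43, and lost its call with no dye term (0.0831). In root and petal BGLU44 (2.31 ± 0.31 and 2.72 ± 0.49) and GLR2.7 (1.37 ± 0.52 and 3.01 ± 0.48) lay above 0 on every array.

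A last group of 1411 tested genes could not be compared, because fewer than 3 root or petal arrays measured them. Of these, 93 were higher in cotyledon callus (6.59%, against 37% of all tested genes) and 700 lower (49.6%, against 33.6%). What kept them from being measured was a ratio at the 100-fold limit. Of 1190 genes unmeasured in petal 1187 were at the lower limit on at least 2 petal arrays. Of 798 unmeasured in root 747 had a ratio at each of the 2 limits. No difference from the other organs was tested for them, and of the 1411 only 119 had a name.

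Among the named genes of this group the highest was ADPG1 (AT3G57510), a polygalacturonase that separates cells at abscission and fruit opening, at 3.74, 2.70, 3.10 and 3.03 (limma adjusted p = 0.000759). Only 2 root arrays measured it, at a mean of -0.53, and in petal it was at -2.37 ± 1.74 (n = 4). ARR15 and the zinc finger gene AtC3H14 (AT1G66810), at 1.83 ± 0.38, each had 2 petal arrays at the lower limit and means of -0.15 and -1.09 in root. DFR (AT5G42800), the dihydroflavonol reductase of anthocyanin synthesis, was at 1.18, 1.96, 2.72 and 1.29, with 2 petal arrays at the lower limit. TBL34 (AT2G38320) at 1.71 ± 0.46 and UGT71B5 (AT4G15280) at 1.37 ± 0.56 followed. HAT2 (AT5G47370), an auxin-induced homeodomain gene, was last at 0.55 ± 0.25 and lost its call without replicate 1 (0.55, adjusted p = 0.0886), 2 (0.40, 0.0522) or 3 (0.55, 0.0903). Its ratio was larger elsewhere, at 1.27 ± 0.08 in root (n = 4) and a mean of 1.37 on the 2 measured petal arrays.

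The lowest named genes of this group were UGT76E2, NdhN and MSRB6, described above, each with 2 petal arrays at the lower limit. In root UGT76E2 was at -2.13 ± 0.60 and MSRB6 at -3.34 ± 1.11 (n = 4 each). NdhN and CSLB03 were at a limit on 2 root arrays, once at each end. CSLB03 was measured on 4 petal arrays, at -4.65 ± 1.08, against -3.54 in cotyledon. UGT72B3 (AT1G01420) read -4.09, -3.94, -4.10 and -3.42 in cotyledon and -3.32 ± 0.71 in root. SFP2 (AT5G27360), a sugar transporter-like gene, was at -2.89, -4.68, -3.00 and -4.70, lower with callus in Cy3, and was measured on 1 root array. AGL87 (AT1G22590), of the MADS-box family of transcription factors, read -3.75, -4.00, -3.82 and -3.55, with 3 petal arrays at the lower limit. AGL79 (AT1G30260), so named in RefSeq's synonyms, was at -3.65 ± 0.17 and had 4 measured root arrays, at -3.00 ± 0.31. Apart from UGT76E2 and SFP2, whose SD exceeded 1, these 8 genes had an SD of 0.32 or less across the cotyledon arrays.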

How the data were processed

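The data are 12 two-colour arrays of root, cotyledon and petal explants and of the callus formed from them, of which the 4 cotyledon arrays are described. The authors deposited 1 ratio per probe and array, whose log base the labels do not state. It was taken as log2 because the deposited values stop at log2 of 100 in both directions. For background correction, normalization and centring the sources used here give no method. Ratios at the 100-fold limit were treated as missing. Control spots were left out, 13720 of 24926 probes with a value could be named, and probes of a gene were averaged (200 tested genes had several, with identical values). Of the platform's 13960 annotated probes, 13912 matched RefSeq's TAIR10.1 genes.

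Genes with at least 3 measured cotyledon ratios entered a fit with an intercept and a dye term (limma 3.58.1, R 4.3.3), and p-values were adjusted by Benjamini-Hochberg. Differences from root and petal came from a fit of all 12 arrays with a coefficient and a dye term for each organ. No set test was run: gene lists were matched by RefSeq symbol or synonym and described by counts and medians. The members and lists were chosen with earlier results of these data known, and 26 lists were added after the names on the array were seen.

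Genes named carry a gene name. Those with adjusted p under 0.05 and 1 sign on all measured cotyledon arrays supplied the 12 highest and 12 lowest on 4 arrays, the 10 with the largest smaller difference in each direction among genes changed in cotyledon alone, the highest and lowest (up to 8 each) among genes not measured in root or petal. The ends, exceptions and small lists' members within each gene list were named whatever their signs, so PSBY, KEU, GH3.9, JMT and RR19 have arrays of both signs, and all members of small lists whether or not they passed, so STOMAGEN, RR21, EXPA18 and THE1 did not. Promoter and protein sequences were not used here.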

Additional observations from a re-analysis of the deposited data

Results flagged for a closer look

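In 9 of the 256 named genes measured on 4 arrays, 1 cotyledon array lay far from the other 3 by Dixon's test at the 95% level. That test flags about 1 of 20 groups by chance, a share that the 9 genes did not exceed. In 6 of them the array was replicate 1: GH9B13 at 5.15, sks15 at 4.63, AtNPF4.3 at 3.98, GH9C2 at 3.96, UGT71C3 at 2.25 and THE1, a receptor kinase gene of wall sensing, at -1.46. The first 5 were higher in that array than in the others, and THE1 was lower. The others were replicate 3 of the response regulator gene RR21 at 2.91, replicate 2 of iqd21 at -3.76 and replicate 2 of the ubiquitin ligase gene PUB23 at 1.84. These genes were not tested for anything further.

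The 20 named genes that changed in cotyledon alone were noted because their callus over explant ratio differed from that of both other organs by the contrasts of the 12-array fit. The smaller of each gene's 2 differences, cotyledon minus the other organ on the log2 scale, is given here, and the genes were chosen by this value. Among genes higher in cotyledon it was 3.99 for GH9C2, 3.57 for ATXYN3, 3.20 for TBL39, 3.19 for ARPN and 3.18 for PRA1.B5. It was 2.97 for GSTU26, 2.84 for UGT71D1, 2.77 for UPB1, 2.75 for GH9B8 and 2.71 for EXPB3. Among genes lower in cotyledon it was -3.97 for CML41, -3.71 for BGLU44, -3.46 for HIS1-3, -2.70 for GLR2.7 and -2.55 for Cpn60beta4. It was -2.42 for CER26, -2.21 for BHLH101, -2.17 for CP5, -2.16 for mTERF9 and -2.12 for MAP1B. The cotyledon arrays of CP5 overlapped with those of petal. A choice by large differences between these arrays favours genes without overlap, and the share without overlap over all genes was not counted. ARPN, BGLU44, GLR2.7 and CP5 lost their cotyledon call under at least 1 alternative.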

How the results depend on the processing

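All 4 counts of genes stayed within 1.5 times their main value under every alternative run. Higher genes numbered 3587 to 4140 and lower genes 2926 to 4667 across the settings that kept all arrays, against 4110 and 3727. Lower genes were most numerous, 4667, with limited ratios kept, where 13510 genes were tested and higher genes numbered 3840. They were fewest with arrays centred on all values. Centring on tested genes gave 3763 higher and 3966 lower genes. With 1 cotyledon array left out, only genes measured on all other cotyledon arrays were tested. Higher genes then numbered 3470 to 3653 and lower genes 2815 to 3258. Genes higher in cotyledon alone numbered 289 to 390 and genes lower alone 335 to 467 with all arrays, and 274 to 308 and 307 to 342 without 1 cotyledon array. Arrays of 1 number in different organs deviated from their group means with correlations from -0.02 to 0.30, and 13 of 24 best matches across organs had the same number. Arrays of 1 number share their dye orientation, which was left in these deviations. With the dye taken out the correlations ran from -0.16 to 0.27. Whether equal numbers mark pairs was not tested, and the main fits did not take them as pairs. With the replicate number as a block 3934 genes were higher, 3331 lower, 337 higher alone and 420 lower alone. Averaging replicates 1 and 2, and 3 and 4, before the fit was chosen after seeing the data, and gave 3587 higher and 3029 lower genes. Among named genes that passed the test AGL24 changed sign, to -0.81 with limited ratios kept. Of 262 named genes that passed the test 193 kept their call in all alternatives run for them. The count of lower secretion genes, 8 of those tested, was 3 to 5 with no dye term, in the 12-array fit, with arrays centred on all values, with the block or without any 1 replicate. PRA1.F1, 1 of the 8, was measured on 3 arrays and was not tested in most fits without 1 replicate. Lower ubiquitin-conjugating and vacuolar sorting genes, 6 each, were 2 and 3 with arrays centred on all values. Lower tetraspanin genes, 4, were 2 without replicate 1, and higher flowering genes, 8, were 4 or 5 in the 12-array fits and with the block. The cause of these shifts was not tested. Ratios at the 100-fold limit were left out, so the lowest genes given here are the lowest measured ones. The planned description of promoter motifs was not run.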
